A study of Mus musculus with 50 samples.

Results

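The comparison sets 3 cultures of an eIF4E-inducible NIH 3T3 line, given mifepristone and 200 µM 4Ei-4, against 3 cultures of a non-inducible NIH 3T3 line given mifepristone and no inhibitor. Its members are the 12 arrays of those 6 cultures, chosen by the labels for line, drug, dose and mifepristone, out of 50 arrays from 25 cultures in the series. Each culture gave an array of its total RNA and an array of its polysome RNA, the heavy fraction of a sucrose gradient. All 12 arrays carry processing batch 4 in the labels, so no batch difference lies between the groups.

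NIH 3T3 is an established mouse fibroblast line. The inducible derivative makes extra eIF4E when it is given mifepristone, and the non-inducible derivative served as its control and received mifepristone as well. 4Ei-4 is named in the design as a less potent analog of the eIF4E inhibitor 4Ei-1, and RNA was taken 4 h into treatment. The line and 4Ei-4 change together between the groups, so the 2 cannot be told apart. The labels do not say whether either derivative is a single clone or whether replicates were grown separately. The p-values therefore measure the spread among replicate cultures within groups, estimated over all 25 cultures of the series.

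eIF4E binds the cap at the 5′ end of an mRNA and, with the scaffold eIF4G and the helicase eIF4A, forms the eIF4F complex that recruits ribosomes. An mRNA that is being translated by many ribosomes sediments in the heavy, polysome fraction of a gradient, and one that is not stays in the lighter part. In fibroblasts, mRNAs of collagens and other secreted matrix proteins are translated on ribosomes bound to the endoplasmic reticulum and are among the most abundant products of the cell.

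Values are log2 intensities after background correction and quantile normalization. Efficiency is the log2 polysome intensity minus the log2 total intensity of the same culture. Because every array was brought to the same distribution, an efficiency of 0 does not mean equal amounts of RNA, and only differences between cultures are read. Differences are given as inducible minus non-inducible with their standard error, and a gene was called when its limma p-value, adjusted over all 12644 genes tested, was below 0.05. In such bulk samples fewer cells making an RNA and less RNA per cell cannot be told apart.

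The mean intensity ran from 278 to 421 over the 12 arrays, and 32.6% to 39.9% of probes were detected. The inducible cultures had fewer probes detected in the polysome fraction (32.6% to 34.2%, against 36.1% to 37.8%) and lower mean intensities in both fractions, and the part of this in the results was not tested. All 13 fibroblast markers were tested and detected on all 12 arrays. Of the markers of other cell types, 2 of 6 epithelial, 3 of 7 leukocyte, 2 of 5 endothelial and 1 of 6 muscle and fat genes were bright enough to be tested. Among these 8 genes only the endothelial receptor gene Tek was called, with a total RNA difference of 0.45 ± 0.15 at an adjusted p of 0.0272. That call was lost without inducible replicate 2 or 3 or non-inducible replicate 2 or 3, at adjusted p-values of 0.0627 to 0.162.

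The probe for Eif4e, the mRNA of the induced factor, was not higher in the inducible line. In total RNA it read 4.68, 4.68 and 4.57 in the inducible cultures and 5.09, 5.04 and 5.09 in the non-inducible cultures. The groups did not overlap, and the difference of -0.43 ± 0.19 missed the threshold at an adjusted p of 0.103. In polysome RNA the values were 4.84, 4.64 and 4.95 against 5.39, 5.26 and 5.42, a difference of -0.54 ± 0.24 with an adjusted p of 0.098. The probe was detected on 0 of 3 inducible total arrays and 1 of 3 inducible polysome arrays, and on all 6 non-inducible arrays. With both differences measured in the 6 cultures alone, the adjusted p was 0.00281 in total RNA and 0.00345 in polysome RNA. The sources used here do not say whether this probe reads the introduced eIF4E, so it does not check the induction.

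The groups differed widely. Polysome RNA was called for 3981 genes (31.5%), 2025 higher and 1956 lower in the inducible cultures, and total RNA for 3111 genes (24.6%), 1595 higher and 1516 lower. Efficiency was called for 1478 genes (11.7%), 832 higher and 646 lower (5.11%). Irrespective of the test, the 3 values of each group did not overlap for 55.6% of genes in polysome RNA, 52.1% in total RNA and 43.8% in efficiency. Of the genes called in both RNA measures, 1924 moved in the same direction and 59 in opposite directions. Of the 832 genes with higher efficiency, 439 were higher in polysome RNA with no call in total RNA, and 130 were lower in total RNA with no call in polysome RNA. Of the 646 with lower efficiency, 293 were lower in polysome RNA with no call in total RNA and 176 were higher in total RNA with no call in polysome RNA. With each array scaled to its median in place of quantile normalization, 32.9% of the polysome calls and 26.5% of the total calls were higher, against 50.9% and 51.3% here. Leaving out any 1 of the 6 cultures lowered the efficiency count to between 609 and 894, the lowest without non-inducible replicate 1.

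**Figure D1:**
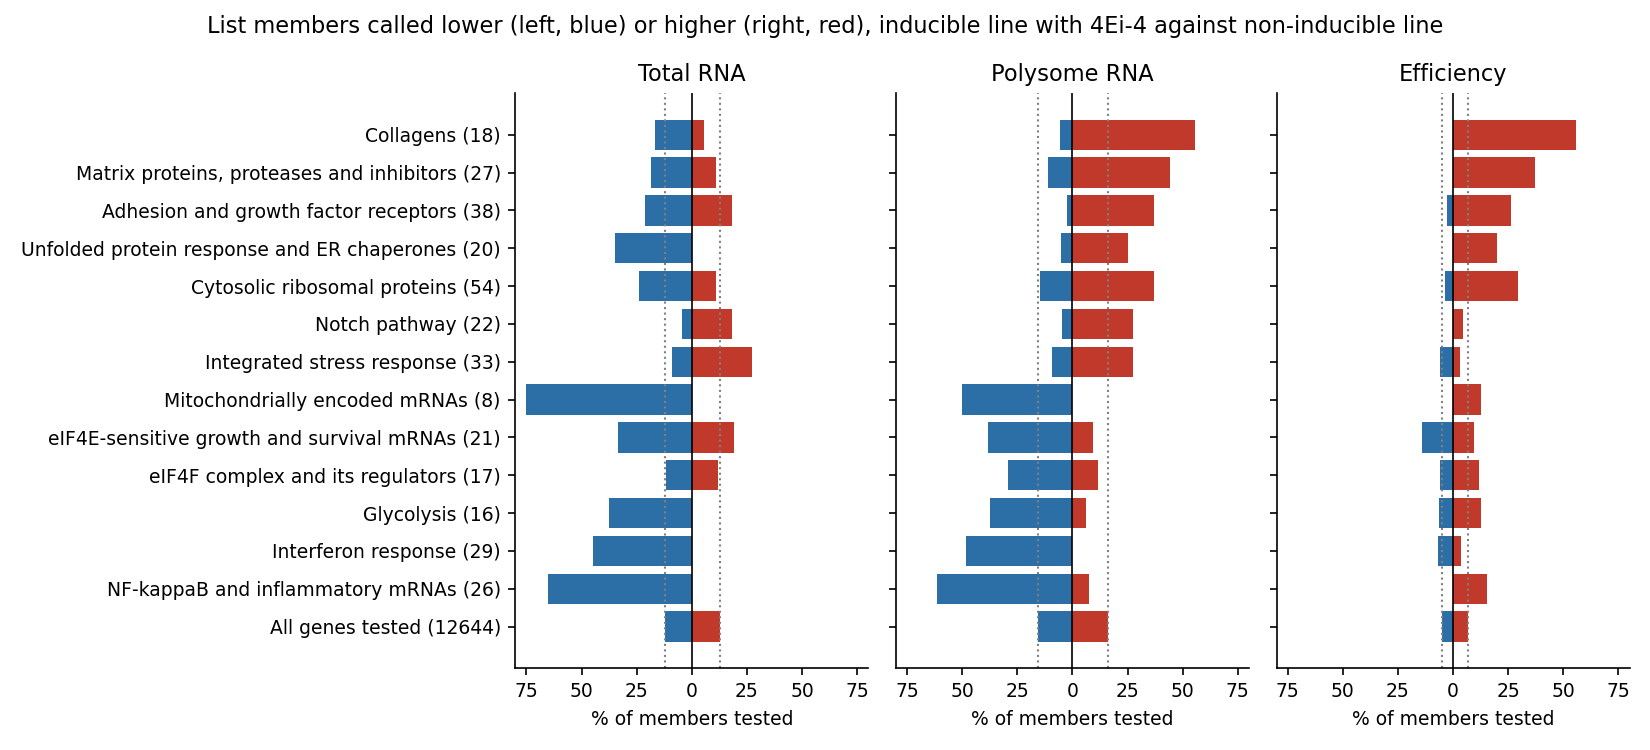
Share of each list's tested members called higher (red, to the right) or lower (blue, to the left) in the inducible cultures with 4Ei-4, in percent, for total RNA, polysome RNA and efficiency; the number of members tested stands beside each name and dotted lines mark the shares over all 12644 genes. Collagens stand out to the right in polysome RNA and efficiency (55.6% higher in each), and inflammatory mRNAs to the left in total RNA (65.4% lower) and polysome RNA (61.5% lower).

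Collagen mRNAs had the largest median rise in efficiency of the 30 lists described. Collagens are the fibrous proteins of the matrix, and of 18 tested 10 were higher and 0 lower in efficiency, where 6.58% of all genes were higher. In polysome RNA 10 were higher and 1 lower (16% of all genes higher), and in total RNA 1 was higher and 3 lower (12.6% of all genes higher). The median member differed by 1.91 in efficiency, by 1.14 in polysome RNA and by -0.11 in total RNA, while the median over all genes was 0.00, 0.01 and 0.02. With the authors' deposited log2 values the collagen medians were 0.78, 0.36 and -0.07.

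Col1a1, the main chain of type I collagen, had the largest rise of all genes tested in polysome RNA and in efficiency. Its polysome RNA was 11.25, 10.87 and 11.33 in the inducible cultures and 6.28, 6.59 and 6.84 in the non-inducible cultures. Every inducible culture lay far above every non-inducible culture. The difference was 4.58 ± 0.63 (adjusted p = 1.39e-05), or 23.9-fold. Total RNA was 11.71, 10.98 and 10.95 against 9.98, 10.15 and 10.44, again without overlap, but the difference of 1.02 ± 0.48 was not called (adjusted p = 0.141). Efficiency was -0.46, -0.10 and 0.38 against -3.70, -3.56 and -3.60, a difference of 3.56 ± 0.88 with an adjusted p of 0.0128. This efficiency call was lost without inducible replicate 3 (adjusted p = 0.0611) or non-inducible replicate 1 (adjusted p = 0.0523), and with the authors' deposited log2 values (2.24, adjusted p = 0.0813).

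Chains of basement membrane collagen IV and of collagen VI were also higher in efficiency. Col4a2, a chain of the collagen IV network under epithelia and endothelia, had an efficiency of -0.53, -0.25 and 0.27 in the inducible cultures and -4.06, -3.67 and -3.36 in the non-inducible cultures. Its difference was 3.53 ± 0.57 (adjusted p = 0.00111), while total RNA differed by -0.63 ± 0.35 (adjusted p = 0.242). Its partner Col4a1 differed by 2.89 ± 0.66 in efficiency and by -0.27 ± 0.29 in total RNA. Col6a2, of the beaded filaments around cells, had an efficiency of -0.41, 0.01 and 0.96 against -3.20, -2.63 and -2.91, a difference of 3.10 ± 0.58, but its other probe gave 0.89. For its partner Col6a1 the difference was 2.43 ± 0.45, and its probes ran from -0.43 to 2.43.

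Col3a1, the chain of reticular fibres, was lower in total RNA on its brighter probe. Its total RNA was 7.11, 7.22 and 7.90 in the inducible cultures and 9.75, 10.28 and 10.16 in the non-inducible cultures. Polysome RNA overlapped, at 6.73, 6.69 and 7.02 against 6.33, 6.74 and 7.58. The total RNA difference was -2.65 ± 0.40 (adjusted p = 5.64e-05), the polysome difference -0.07 ± 0.42 and the efficiency difference 2.58 ± 0.60 (adjusted p = 0.00854). These values rest on that probe, since the other gave -0.20 in total RNA and 0.36 in efficiency. Col18a1, the source of endostatin, was the collagen that fell in polysome RNA, at -1.34 ± 0.36, with a difference of -2.06 ± 0.23 in total RNA. The remaining calls in efficiency were Col1a2, Col5a1, Col8a1 and Col16a1, between 1.83 and 2.37.

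Other matrix proteins followed the collagens. Of 27 tested matrix proteins, proteases and inhibitors, 10 were higher and 0 lower in efficiency (37% higher, against 6.58% of all genes). In polysome RNA 12 were higher and 3 lower (44.4% and 11.1%, against 16% and 15.5%). In total RNA 3 were higher and 5 lower (11.1% and 18.5%, against 12.6% and 12%). The medians were 0.77, 0.70 and -0.03. With the authors' deposited log2 values the polysome median was 0.12. Fn1 encodes fibronectin, the adhesive glycoprotein that cells assemble into fibrils. Its total RNA overlapped, at 12.62, 12.37 and 11.90 against 12.53, 12.31 and 12.32, whereas polysome RNA was 11.50, 11.46 and 11.97 against 8.24, 9.12 and 8.12. The efficiency difference was 3.23 ± 0.69 (adjusted p = 0.00541), and another probe of the gene gave 2.95. The probes disagreed on the fraction that moved, since the other gave -2.59 in total RNA and 0.37 in polysome RNA. Hspg2, which encodes the basement membrane proteoglycan perlecan, had an efficiency of -0.66, -0.73 and 0.28 against -4.0, -3.41 and -3.76, a difference of 3.35 ± 0.75 (adjusted p = 0.00699), with total RNA at -0.13 ± 0.34.

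Proteases and their inhibitors were mixed. Timp2, an inhibitor of matrix metalloproteinases, had a polysome RNA of 13.17, 12.93 and 13.22 against 10.90, 11.50 and 11.07 and an efficiency difference of 1.72 ± 0.31. Its relative Timp3 was lower in both fractions, at -2.41 ± 0.17 in total RNA and -2.19 ± 0.27 in polysome RNA, and its efficiency overlapped between the groups. Mmp9, a secreted gelatinase, was 7.25, 7.01 and 6.83 against 10.43, 9.82 and 10.08 in total RNA, a difference of -3.08 ± 0.40. Its polysome RNA fell by 1.11 ± 0.29, so that its efficiency was higher by 1.98 ± 0.39. Tnc, the wound matrix protein tenascin C, fell by 2.21 ± 0.31 in total RNA and was called higher in efficiency at 2.94 ± 0.50. With total RNA as a covariate of polysome RNA, which replaces the subtraction, the Tnc value was 0.29 (adjusted p = 0.899).

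**Figure D2:**
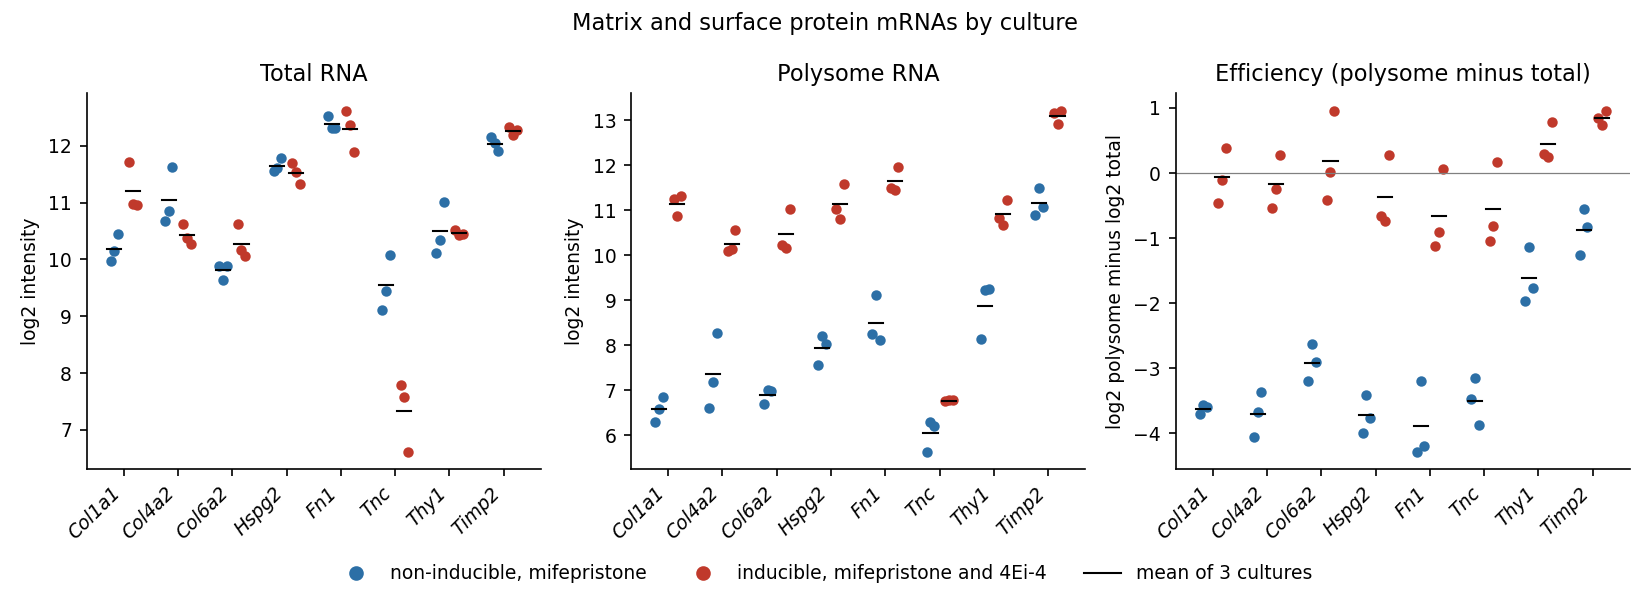
Total RNA, polysome RNA and efficiency of 8 matrix and surface protein mRNAs in each of the 6 cultures, as log2 intensity (left and middle) and as log2 polysome minus log2 total (right); points are cultures and black lines the mean of 3. Total RNA of Fn1, Hspg2 and Thy1 overlaps between the lines, while in polysome RNA and efficiency every inducible culture (red) lies above every non-inducible culture (blue) for all 8 mRNAs.

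Collagen efficiency differed within the inducible line between batches, which also differ in the dose of 4Ei-1. The median efficiency of the collagens was -0.24, 0.02 and 0.06 in the 3 inducible cultures with 4Ei-4 and -2.09, -1.85 and -1.97 in the 3 non-inducible cultures, all of batch 4. In the other 18 cultures of the inducible line it ran from -2.49 to 0.81. The 6 of them in batch 3 lay between -2.49 and -1.33, over the range of the non-inducible cultures, and the 12 in batches 1 and 2 lay between -1.33 and 0.81. Matrix proteins showed the same order, with -1.47 to -0.99 in batch 3 and -1.03 to 0.16 in batches 1 and 2, against -0.24 to 0.11 and -1.04 to -0.71 in the groups compared, the lone non-inducible culture without mifepristone included. The inducible cultures of batch 3 had no 4Ei-1 or its lowest dose. Every higher dose lay in batches 1 and 2, beside some cultures without it, so batch and dose were not separated here. The part of culture handling or gradient runs in the difference was not tested.

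**Figure D3:**
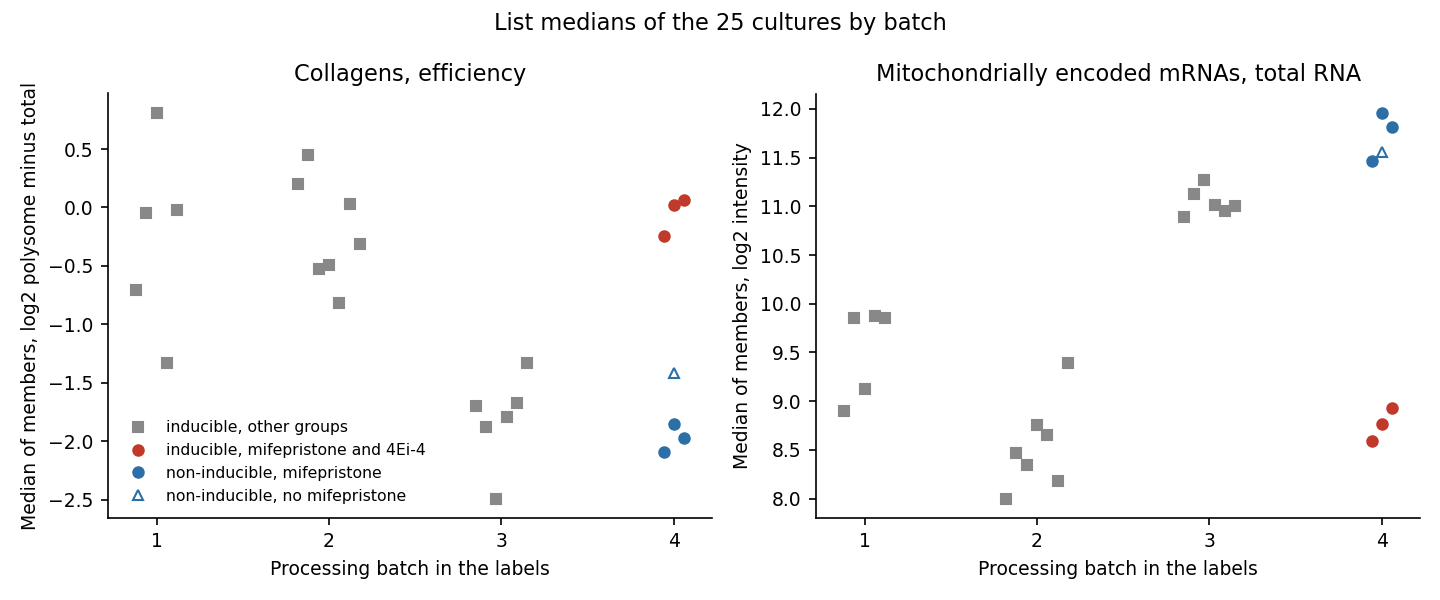
Median efficiency of the 18 collagens (left, log2 polysome minus total) and median total RNA of the 8 mitochondrially encoded mRNAs (right, log2 intensity) in each of the 25 cultures, by processing batch. Within batch 4 the inducible cultures with 4Ei-4 (red) and the non-inducible cultures (blue) separate in both panels, and the inducible cultures of batch 3 (grey) lie near the non-inducible ones.

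Some receptors and adhesion molecules were higher in efficiency. Of 38 tested, 10 were higher and 1 lower in efficiency (26.3% and 2.63%, against 6.58% and 5.11% of all genes). In polysome RNA 14 were higher and 1 lower (36.8% and 2.63%, against 16% and 15.5%), and in total RNA 7 were higher and 8 lower (18.4% and 21.1%, against 12.6% and 12%). The median efficiency difference was 0.66, or 0.23 with the authors' deposited log2 values. In the 6 inducible cultures of batch 3 the median efficiency of the list was -1.04 to -0.88, at the level of the non-inducible cultures (-0.99 to -0.77). Sdc4, a heparan sulfate proteoglycan of focal adhesions, had an efficiency of 1.08, 0.76 and 0.70 against -1.87, -1.48 and -1.57. Its total RNA fell by 1.49 ± 0.20 and its polysome RNA rose by 1.00 ± 0.24, so the fractions moved in opposite directions, and the efficiency difference was 2.48 ± 0.27 (adjusted p = 8.97e-05). Fgfr1, a fibroblast growth factor receptor, rose in both fractions, by 2.60 ± 0.19 in polysome RNA and by 1.16 ± 0.25 in total RNA. Igf2r, the receptor that carries mannose 6-phosphate enzymes to lysosomes, had a total RNA of 9.71, 9.64 and 9.29 against 9.43, 9.73 and 9.30 and an efficiency difference of 2.25 ± 0.64. Of the 13 fibroblast markers, which share several members with the matrix lists, 7 were higher and 1 lower in polysome RNA (53.8% and 7.69%, against 16% and 15.5% of all genes). In efficiency 6 of these markers were higher and 0 lower (46.2% higher, against 6.58%). The surface protein Thy1, one of them, overlapped in total RNA as well and differed by 2.06 ± 0.27 in efficiency (adjusted p = 0.000357). Leaving out 1 culture lowered the count of receptors higher in efficiency to between 4 and 7.

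The filamin mRNAs Flna and Flnc and the dynein heavy chain mRNA Dync1h1 were higher in efficiency, while smooth muscle actin was lower in both fractions. Flna, which encodes the actin crosslinker filamin A, had a total RNA of 8.90, 8.63 and 8.30 against 8.91, 8.51 and 8.90 and a polysome RNA of 8.93, 8.88 and 8.77 against 5.97, 6.26 and 6.40. Its efficiency difference was 2.81 ± 0.44 (adjusted p = 0.000911). Flnc, a second filamin, differed by 2.69 ± 0.48 in efficiency and Dync1h1, the heavy chain of cytoplasmic dynein, by 2.65 ± 0.65. Acta2, the smooth muscle actin of contractile fibroblasts, was at -2.05 ± 0.39 in total RNA and -2.28 ± 0.45 in polysome RNA, with efficiency differing by -0.24 ± 0.21 (adjusted p = 0.627). Its 3 inducible cultures ranged widely in total RNA, at 7.95, 8.25 and 9.57 against 11.27, 10.55 and 10.10. Over the 19 contractile and actin genes tested, 4 were higher and 6 lower in polysome RNA (21.1% and 31.6%, against 16% and 15.5% of all genes) and 6 were higher and 2 lower in efficiency (31.6% and 10.5%, against 6.58% and 5.11%).

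Chaperones and quality control factors of the endoplasmic reticulum shifted less. Of 20 tested, 0 were higher and 7 lower in total RNA (35% lower, against 12% of all genes). In polysome RNA 5 were higher and 1 lower (25% and 5%, against 16% and 15.5%). In efficiency 4 were higher and 0 lower (20% higher, against 6.58%), a count that fell to 1 or 2 when any culture was left out. Hsp90b1, the folding chaperone GRP94, had a total RNA of 9.43, 9.28 and 9.46 against 10.30, 10.62 and 10.99. Its polysome RNA overlapped, and its efficiency differed by 1.98 ± 0.46. Sel1l and Syvn1, partners in the ligase that removes misfolded proteins from this compartment, differed by -1.27 ± 0.21 and -0.97 ± 0.20 in total RNA, and Dnajb9, a cochaperone of BiP, fell by 1.51 ± 0.31.

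Among genes detected on all 12 arrays, the 6 with the largest falls in efficiency were Lypla1, Bmi1, Cop1, Rbbp7, Efr3a and Rab5a, which encode intracellular proteins. Lypla1, a thioesterase that removes palmitate from proteins, had an efficiency of -2.84, -2.37 and -2.42 in the inducible cultures and 1.24, 0.93 and 0.12 in the non-inducible cultures. Its total RNA was higher by 1.60 ± 0.21 and its polysome RNA fell by 1.70 ± 0.57, so the fractions moved apart and efficiency differed by -3.31 ± 0.63 (adjusted p = 0.00258). Bmi1, a Polycomb protein, had a total RNA of 9.05, 9.14 and 8.82 against 7.10, 7.10 and 7.42, a rise of 1.80 ± 0.19, and an efficiency difference of -3.12 ± 0.63. Its polysome difference of -1.32 ± 0.56 was not called (adjusted p = 0.0821).

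Efr3a, which anchors a phosphatidylinositol kinase at the plasma membrane, was -2.0, -1.31 and -1.22 against 1.74, 1.22 and 1.26 in efficiency, a difference of -2.92 ± 0.37 (adjusted p = 0.000357). Cop1, a ubiquitin ligase, differed by -3.00 ± 0.61, Rbbp7, a histone binding protein, by -2.96 ± 0.47 and Rab5a, a GTPase of early endosomes, by -2.90 ± 0.50. These values depend on the probe and on the model. In efficiency the other probes reached 0.01 for Rbbp7, -0.50 for Cop1, -0.37 for Efr3a and -0.01 for Rab5a, and the last 3 differed in sign between probes in total RNA. With total RNA as a covariate Bmi1 turned to 1.29 (adjusted p = 0.672), and Efr3a (-1.92), Lypla1 (-0.96), Rab5a (-2.48) and Rbbp7 (-2.96) missed the threshold at adjusted p-values of 0.0807 to 0.739. In the other 18 inducible cultures the efficiency of Lypla1 ran from -2.99 to 0.71 and that of Bmi1 from -4.13 to 0.09, nearly the whole span between the groups compared here.

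Met, the receptor of hepatocyte growth factor, differed between the fractions. Its total RNA was 8.47, 8.04 and 8.04 against 4.68, 4.80 and 4.79, a difference of 3.43 ± 0.19 (adjusted p = 2.14e-10). In polysome RNA it was 5.05, 5.21 and 5.62 against 4.43, 4.51 and 4.37, where it was detected on 0 of 3 non-inducible arrays, so it was at least 1.41-fold higher there. The non-inducible cultures lie near background in both fractions, and the efficiency difference of -2.57 ± 0.35 compares a measured value with background values.

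Translation factors gave no single direction. Of 17 tested members of the eIF4F complex and its regulators, 2 were higher and 5 lower in polysome RNA (11.8% and 29.4%, against 16% and 15.5% of all genes). In total RNA 2 were higher and 2 lower, at 11.8% each way against 12.6% and 12% of all genes. Pdcd4, which blocks the helicase eIF4A, was 9.74, 9.37 and 9.53 against 11.13, 10.78 and 11.02 in polysome RNA, a difference of -1.43 ± 0.21, and fell by 0.99 ± 0.20 in total RNA. Eif4a2, a form of that helicase, fell by 0.97 ± 0.18 in polysome RNA and missed the threshold in total RNA (-0.49 ± 0.20, adjusted p = 0.0822), while another probe gave -2.99 in polysome RNA. Mtor, the kinase upstream of the eIF4E-binding proteins, was higher by 1.24 ± 0.23 in polysome RNA, but another of its probes gave -0.44. The poly(A)-binding protein mRNA Pabpc1 fell by 2.43 ± 0.27 in polysome RNA on its brightest probe, while its probes ran from -2.43 to -0.34 there and from -2.42 to 1.56 in total RNA.

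mRNAs known from other systems to respond to eIF4E were called lower more often than higher, with no shift of the median in total RNA. Of 21 tested, 2 were higher and 8 lower in polysome RNA (9.52% and 38.1%, against 16% and 15.5% of all genes). The median difference there was -0.27, with 6 of 21 above 0, or -0.06 with the authors' deposited log2 values. In total RNA 4 were higher and 7 lower (19% and 33.3%, against 12.6% and 12%), and the median difference was 0.01. In efficiency 2 were higher and 3 lower (9.52% and 14.3%, against 6.58% and 5.11%), and the count lower ran from 0 to 7 over the alternative fits. The efficiency median was -0.1, with 5 of 21 above 0. The 2 higher were Mmp9 and Lcn2, both lower in total RNA. Lcn2 was detected on no inducible array, so its efficiency compares background values with measured ones. Ccnd1, which encodes cyclin D1, was 10.00, 10.02 and 9.75 against 8.29, 8.48 and 7.41 in total RNA, a rise of 1.86 ± 0.23, and rose by 1.40 ± 0.22 in polysome RNA. Myc, the growth-promoting transcription factor, rose by 1.64 ± 0.29 in total RNA and differed by -1.0 ± 0.25 in efficiency (adjusted p = 0.0144). Hif1a, the hypoxia factor, was 4.54, 5.37 and 5.06 against 8.34, 7.92 and 8.20 in polysome RNA, a difference of -3.16 ± 0.54, and fell by 1.19 ± 0.22 in total RNA. Its efficiency differed by -1.97 ± 0.49, and its inducible polysome RNA was detected on 2 of 3 arrays.

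Ribosomal protein mRNAs, the main class with a terminal oligopyrimidine tract at the 5′ end, were called higher in efficiency more often than lower. Of 54 tested, 16 were higher, 2 lower and 36 not called in efficiency (29.6% higher, against 6.58% of all genes). In polysome RNA 20 were higher and 8 lower (37% and 14.8%, against 16% and 15.5%). In total RNA 6 were higher and 13 lower (11.1% and 24.1%, against 12.6% and 12%). Their median efficiency was -0.44, -0.47 and -0.45 in the inducible cultures and -1.15, -1.03 and -0.78 in the non-inducible cultures. In the other 18 inducible cultures, all of batches 1 to 3, it ran from -1.23 to -0.59, so the 3 cultures with 4Ei-4 were the highest of the inducible line. Those 3 were also the only inducible cultures of batch 4, so batch and 4Ei-4 cannot be told apart in that order. Rps15, of the small subunit, was 11.55, 11.48 and 11.45 against 9.73, 9.61 and 9.57 in polysome RNA and -1.24, -1.26 and -1.34 against -2.48, -2.36 and -2.37 in efficiency, differences of 1.86 ± 0.16 and 1.12 ± 0.20. Rpl38, of the large subunit, differed by 0.92 ± 0.20 in efficiency. Rps3a1 was lower in both fractions, at -2.71 ± 0.21 in total RNA and -1.39 ± 0.24 in polysome RNA, and Rpl7a was at -1.43 ± 0.13 and -0.94 ± 0.21. Ribosomal protein genes have many near-identical copies, so probes for them are uncertain, and leaving out 1 culture moved the count higher in efficiency to between 6 and 14. Of 17 other mRNAs of the class, 1 was higher and 1 lower in efficiency (5.88% each way, against 6.58% and 5.11% of all genes). In polysome RNA 2 were higher and 6 lower (11.8% and 35.3%, against 16% and 15.5%). The lower ones included the nucleolar protein Npm1 with a difference of -1.21 ± 0.16.

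Inflammatory mRNAs were broadly lower in the inducible line with 4Ei-4. NF-kB is a family of transcription factors that is held in the cytoplasm by inhibitors until a cytokine or a microbial product releases it, and its targets include chemokines, acute phase proteins and its own inhibitors. Of 26 tested NF-kB and inflammatory mRNAs, 0 were higher and 17 lower in total RNA, where 12% of all genes were lower, and 2 were higher and 16 lower in polysome RNA, where 15.5% were lower. The median difference was -1.04 in total RNA and -0.94 in polysome RNA, or -0.56 and -0.45 with the authors' deposited log2 values. In efficiency 4 were higher and 0 lower (15.4% higher, against 6.58% of all genes). By culture the median total RNA of the list was 7.11, 6.99 and 7.65 against 9.48, 9.31 and 9.0.

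Saa3, an acute phase apolipoprotein, had the largest fall among genes detected on every array of the comparison. Its total RNA was 8.88, 8.67 and 8.37 in the inducible cultures and 14.03, 13.54 and 14.12 in the non-inducible cultures. The total difference was -5.25 ± 0.76 (adjusted p = 3.51e-05), or 38.1-fold lower, and the polysome difference -4.84 ± 0.68. Ccl5, a chemokine for T cells and monocytes, was 5.41, 4.96 and 5.53 against 10.17, 9.58 and 9.44 in total RNA, a difference of -4.43 ± 0.56, and it was detected on 1 of 3 inducible polysome arrays. Ccl2, a monocyte chemokine, was 7.32, 7.72 and 8.57 against 11.46, 10.97 and 11.03, a difference of -3.28 ± 0.37. In each of the 3 the groups lay far apart.

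Receptors and regulators of the pathway fell with the targets. Tlr2, a receptor for bacterial lipoproteins, was 7.86, 7.80 and 8.22 against 12.04, 11.55 and 11.10 in total RNA, a difference of -3.60 ± 0.25. Nfkb2, which encodes the p100 precursor, differed by -2.04 ± 0.21. Tnfaip3, which encodes the feedback inhibitor A20, was detected on 1 of 3 inducible arrays in each fraction and on all non-inducible arrays, so its difference of -1.71 ± 0.15 is measured against values near background. Cxcl1, a neutrophil chemokine, was 9.80, 9.80 and 10.61 against 13.18, 12.62 and 12.50, and Nfkbia, the inhibitor IkBa, 9.58, 9.45 and 9.91 against 11.05, 10.41 and 10.18. Their differences were -2.70 ± 0.42 and -0.90 ± 0.20 in total RNA, and -2.78 ± 0.56 and -0.99 ± 0.30 in polysome RNA. The transcription factor subunit Rela itself overlapped in total RNA (-0.15 ± 0.17, adjusted p = 0.654). The 2 members called higher in polysome RNA were Ccl8, a monocyte chemokine, at 1.66 ± 0.40 and Lif, a cytokine of the interleukin 6 family, at 0.54 ± 0.16, and neither was called in total RNA. Lif was detected on 1 of 3 non-inducible polysome arrays. The iron-binding protein Lcn2 was detected on no inducible array and on all non-inducible arrays, at least 4.97-fold lower in total RNA, and its efficiency call, like that of Ccl5, compares background values with measured ones.

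Promoter windows of 5 members that fell are shown because they share letters of the kind that NF-kB binds. GGANTTNCC was searched on both strands, as GGNAANTCC on the other, in RefSeq promoters of GRCm38.p6 from 250 bases before to 50 after each start. It was found in 1296 of 32851 promoters (3.95%) and in 13 of the 23 promoters of the 20 tested members that had an entry (56.5%), belonging to 11 genes. The members were put on the list for this pathway, so the share is a description, and a match is not evidence of binding. Capitals mark the matched letters in the windows, each read in the direction of its gene.
Cxcl1, chr5:90891165-90891193, + strand, match 70 bases before the start: ctgtactccgGGAATTTCCctggcccgga
Nfkb2, chr19:46305696-46305724, + strand, match 224 bases before the start: ggtattttcgGGACTTTCCtaagcagcac
Tnfaip3, chr10:19015416-19015444, - strand, match 24 bases before the start: tcacgtgactGGAATTTCCatcggaaatc
Nfkbia, chr12:55492658-55492686, - strand, match 29 bases before the start: tgactggcttGGAAATTCCccgcgcctga
Csf1, chr3:107760605-107760633, - strand, match 154 bases before the start: gggccttgagGGAAAGTCCctaggggcca
The first 3 hold the motif on the strand of the gene and Nfkbia and Csf1 on the reverse strand. All 5 genes were lower in both fractions, and Csf1, a macrophage growth factor, differed by -2.38 ± 0.37 in total RNA. Il6 and Rel also held a match and were called in neither fraction, each detected on 2 of the 12 arrays.

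Interferon-stimulated mRNAs were lower as well. Of 29 tested, 0 were higher and 13 lower in total RNA, 0 were higher and 14 lower in polysome RNA, and 1 was higher and 2 lower in efficiency, with medians of -0.50, -0.44 and 0.01. The shares lower were 44.8% in total RNA and 48.3% in polysome RNA, against 12% and 15.5% of all genes. The total RNA median was -0.18 with the authors' deposited log2 values and -1.04 with median scaling. Gbp2, a GTPase that coats intracellular pathogens, was 9.02, 9.08 and 9.04 in total RNA of the inducible cultures and 11.94, 11.57 and 10.73 in the non-inducible cultures, a difference of -2.36 ± 0.25. The inducible cultures were within 0.06 of each other, while non-inducible replicate 3 was the lowest of its group. Its relative Gbp3 fell by 2.63 ± 0.22. Oasl2, an antiviral factor related to the oligoadenylate synthetases, was detected on 0 of 3 inducible total arrays and at least 4.31-fold lower there. Irgm1, a GTPase of autophagy and defence, was 9.31, 9.22 and 9.56 against 11.33, 11.32 and 10.99 in polysome RNA, a difference of -1.85 ± 0.19, and Irf1, a transcription factor of the response, differed by -1.78 ± 0.21 in total RNA and by -2.22 ± 0.26 in polysome RNA.

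The interferon-stimulated response element was searched in the same RefSeq windows of GRCm38.p6 as GAAANNGAA, or TTCNNTTTC on the other strand. It was in 2812 of 32851 promoters (8.56%) and in 13 of 27 promoters of 21 members (48.1%), belonging to 13 genes. Matches within a promoter can overlap each other, as they do in Gbp3 and Irgm1. Bst2, Cxcl10, Ifit3, Isg15, Rsad2 and Stat2 also held a match, and their windows are not shown. The windows are those of 4 members picked because they were called lower in both fractions, with the match in capitals. This choice cannot show whether a match goes with a fall.
Gbp2, chr3:142620595-142620623, + strand, match 58 bases before the start: ctcttttagtTTCACTTTCactgtcttaa
Gbp3, chr3:142559990-142560018, + strand, match 44 bases before the start: aggacacagtTTCAGTTTCtatttcccag
Igtp, chr11:58199512-58199540, + strand, match 34 bases before the start: tctaggaactGAAACTGAAagctgttcgg
Irgm1, chr11:48871426-48871454, - strand, match 24 bases before the start: tcaagaaataGAAACCGAAactgattctc
Gbp2 and Gbp3 hold the motif on the reverse strand and Igtp and Irgm1 on the strand of the gene. Igtp, a relative of Irgm1, fell by 1.46 ± 0.32 in total RNA. Of antigen presentation genes, 1 of 18 was higher and 6 lower in total RNA (5.56% and 33.3%, against 12.6% and 12% of all genes). In polysome RNA 3 were higher and 5 lower (16.7% and 27.8%, against 16% and 15.5%), with a median difference of 0.09. In efficiency 2 were higher and 0 lower (11.1% higher, against 6.58%). The falls in total RNA included the immunoproteasome subunits Psmb10, at -1.25 ± 0.19, and Psmb9, at -1.16 ± 0.35, and the proteasome activator Psme1, at -1.06 ± 0.15. H2-D1, a classical class I heavy chain, was higher by 1.00 ± 0.14, but its probes ran from -0.44 to 1.00.

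**Figure D4:**
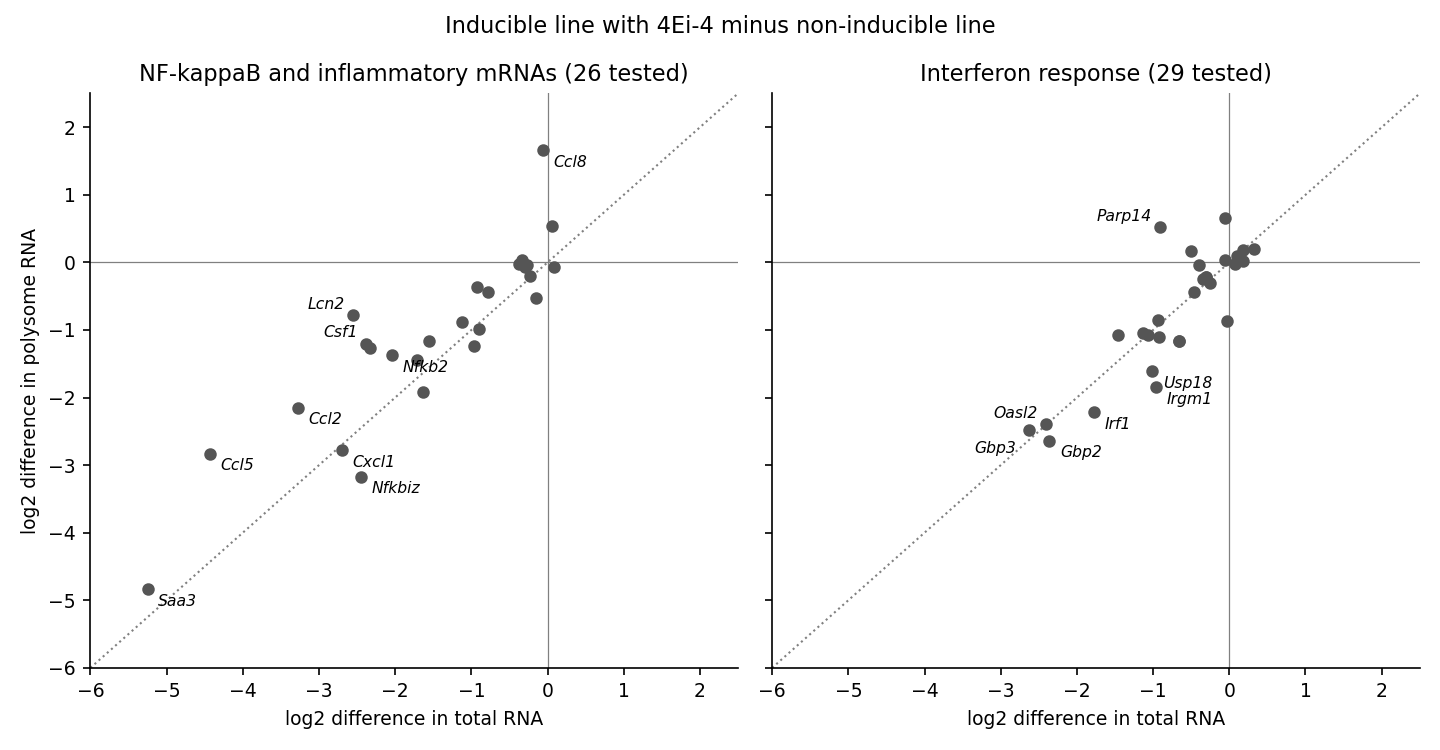
Difference in polysome RNA (vertical) against difference in total RNA (horizontal), both as log2 inducible with 4Ei-4 minus non-inducible, for the 26 inflammatory (left) and 29 interferon (right) mRNAs tested; the dotted line marks equal differences. Most members lie below 0 on both axes, with Saa3 at -5.25 and -4.84, and Ccl8 is the inflammatory member farthest above 0 in polysome RNA (1.66).

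The other inducible cultures of the series also had lower levels of these lists than the non-inducible cultures. The median total RNA of the inflammatory list ran from 5.69 to 7.37 in the other 18 inducible cultures, over batches 1 to 3, and from 8.65 to 9.48 in the 4 non-inducible cultures. For the interferon list the ranges were 5.01 to 5.98 and 6.04 to 6.59. Ccl5 total RNA was 4.75 to 5.54 on average in the 6 other inducible groups. The one non-inducible culture without mifepristone, also of batch 4, had 9.70, close to the 9.73 ± 0.39 (SD, n = 3) of the non-inducible cultures with it. Saa3 total RNA varied more, from 4.27 to 10.97 in the other 18 inducible cultures, and stayed below the 13.54 of the lowest non-inducible culture. No non-inducible culture analysed here lies in batches 1 to 3, so line and batch cannot be told apart outside batch 4.

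The Notch target genes Hes1 and Hey1 rose strongly in total RNA. Notch is a surface receptor whose cleaved inner part switches on these transcriptional repressors. Hes1 total RNA was 9.50, 9.52 and 9.54 in the inducible cultures and 5.25, 5.50 and 5.36 in the non-inducible cultures, a difference of 4.15 ± 0.30 (adjusted p = 8.75e-09) or 17.8-fold. Its polysome RNA rose by 3.78 ± 0.33, and its efficiency overlapped. Hey1 was 8.11, 8.17 and 8.01 against 4.81, 4.54 and 4.52, a difference of 3.47 ± 0.17, and was detected on 1 of 3 non-inducible total arrays. Hes6, a further member of the Hes family, rose by 1.29 ± 0.18, and Maml2, a coactivator of the pathway, fell by 1.03 ± 0.23. Of the 22 Notch genes tested, 4 were higher and 1 lower in total RNA (18.2% and 4.55%, against 12.6% and 12% of all genes). In polysome RNA 6 were higher and 1 lower (27.3% and 4.55%, against 16% and 15.5%). Most members were not called in either fraction, and the median difference in total RNA was 0.03.

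Within the inducible line Hes1 and Hey1 went with mifepristone. Mean total RNA of Hes1 was 9.36 to 9.64 in the 6 inducible groups with mifepristone, with any drug dose, and 5.90 ± 0.85 (SD, n = 3) in the inducible group without it. For Hey1 it was 7.78 to 8.45 and 4.60 ± 0.08. Met had the same order, at 6.71 to 8.18 and 4.83 ± 0.03, and the 4Ei-4 group was its highest. The non-inducible cultures with mifepristone, at 5.37 ± 0.12 for Hes1, were near the single non-inducible culture without it at 5.12. These groups span several batches and are set side by side without a test.

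Some genes were near background in all cultures of a group. In total RNA 43 called genes were detected on all inducible and no non-inducible arrays, and 161 on all non-inducible and no inducible arrays. Rgcc, a cell cycle regulator of the complement response, was 9.91, 10.25 and 10.59 in the non-inducible cultures and near background at 4.40, 4.50 and 4.54 in the inducible cultures, at least 43.7-fold lower. Xlr4a, an imprinted X-linked gene family member, was at least 13.6-fold lower and Sfrp2, a secreted inhibitor of Wnt signalling, at least 11-fold lower. Cytip, a cytohesin binding protein of leukocytes, was 8.23, 8.21 and 8.10 in the inducible cultures and at least 10.9-fold higher, and Rnpepl1, an aminopeptidase, at least 8.41-fold higher. Each such bound sets the mean of the bright group against the higher of the dim probe and the lowest detected signal. Rgcc averaged 4.80 or less in every inducible group, and Cytip 7.61 to 8.28, in each case with the inducible group without mifepristone included.

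**Figure D5:**
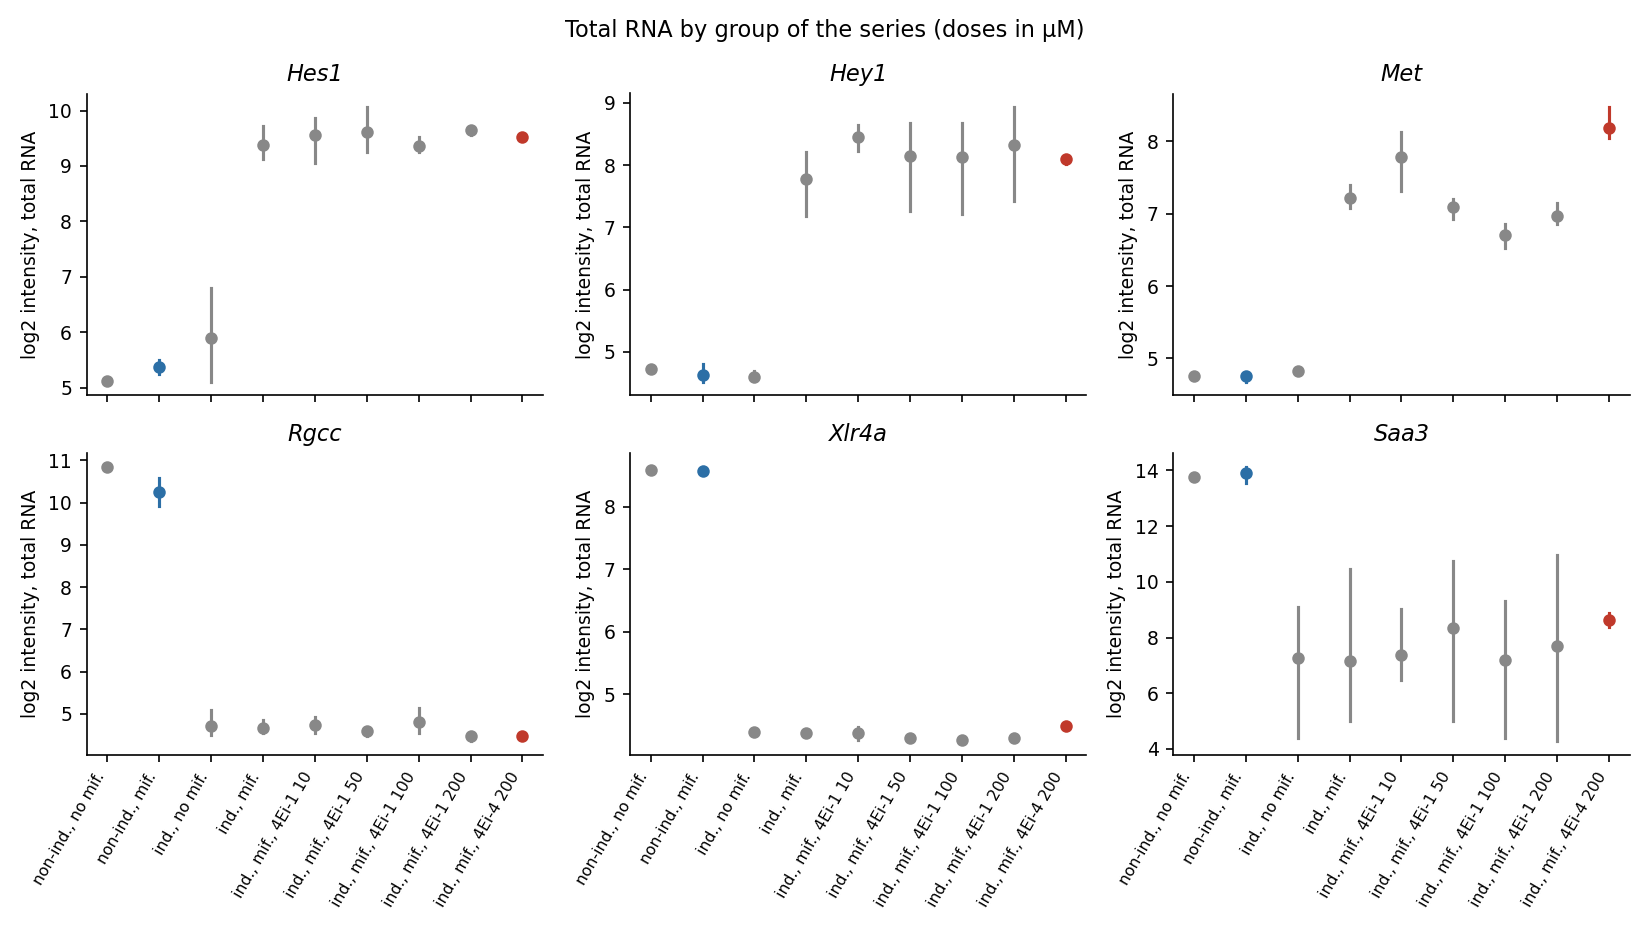
Total RNA of 6 genes in the 9 groups of the series, as log2 intensity; points are group means, lines run from the lowest to the highest culture, blue is the non-inducible and red the inducible group compared, and doses are in µM. Hes1, Hey1 and Met are low in both non-inducible groups and in the inducible group without mifepristone, whereas Rgcc, Xlr4a and Saa3 are high in the 2 non-inducible groups and lower in all inducible groups.

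Among genes detected on every array, several further mRNAs stood among the 8 largest changes each way. Sgpl1, the lyase that ends sphingosine 1-phosphate signalling, was 10.93, 10.73 and 10.99 against 6.92, 6.63 and 6.49 in polysome RNA, a rise of 4.20 ± 0.17, with a rise of 2.77 ± 0.21 in total RNA. Its other probe gave 2.91 in polysome RNA. Dlx1, a homeobox factor, was 9.15, 9.31 and 9.21 against 5.73, 6.13 and 5.60 in total RNA, a rise of 3.40 ± 0.18, and Etv5, a transcription factor downstream of growth factor signalling, rose by 3.39 ± 0.22. Asic1, an acid-sensing channel, rose by 3.75 ± 0.23 in polysome RNA and Crtc3, a CREB coactivator, by 3.38 ± 0.29. Scara5, a ferritin receptor, rose by 3.13 ± 0.48 in total RNA, where non-inducible replicate 3 at 5.55 was well below the other two at 7.75 and 7.65.

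Large falls outside inflammation were of diverse function. Igfbp4, which binds insulin-like growth factors, was 8.73, 8.67 and 8.97 against 12.30, 12.38 and 12.42 in total RNA, a difference of -3.58 ± 0.19, and it fell by 4.48 ± 0.29 in polysome RNA. Dynlt3, a dynein light chain, differed by -3.63 ± 0.21 in total RNA and Rnf144a, a ubiquitin ligase, by -3.59 ± 0.27. Tgfbi, a matrix protein induced by TGF-beta, was 6.36, 6.46 and 5.87 against 9.76, 9.93 and 9.88, a difference of -3.62 ± 0.34, and it fell by 1.63 ± 0.31 in polysome RNA. Cbr2, a carbonyl reductase, and Rasl11b, a small GTPase, differed by -3.64 ± 0.35 and -3.62 ± 0.33 in polysome RNA. Ppp1cb, a phosphatase catalytic subunit, fell by 3.30 ± 0.56 in polysome RNA with total RNA at -0.47 ± 0.30.

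Mitochondrially encoded mRNAs were lower in total RNA in 6 of the 8 tested (75%, against 12% of all genes), and none was higher. These mRNAs are translated inside mitochondria, not on cytoplasmic polysomes. ATP6, of the ATP synthase, was 8.61, 8.98 and 9.14 against 11.64, 12.08 and 12.05 in total RNA, a difference of -3.01 ± 0.28, and COX2, of cytochrome oxidase, fell by 2.96 ± 0.28. In the heavy fraction 4 of 8 were lower (50%, against 15.5% of all genes), and ATP6 fell by 2.0 ± 0.46. The median total RNA of the list was 8.59, 8.77 and 8.93 against 11.47, 11.96 and 11.81 here. It was 10.89 to 11.27 in the 6 inducible cultures of batch 3 and 8.0 to 9.87 in the 12 of batches 1 and 2. These batches also differ in the dose of 4Ei-1, so batch and dose were not separated. Collagen efficiency differed between the same batches, and the part of the mitochondrial mRNAs in that result was not tested.

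Energy and sterol metabolism fell in part. Of 16 glycolysis genes tested, 0 were higher and 6 lower in total RNA (37.5% lower, against 12% of all genes). Pgk1, phosphoglycerate kinase, was 8.95, 9.14 and 8.93 against 11.62, 11.58 and 12.03, a difference of -2.74 ± 0.20, and Pdk1, a kinase that inhibits pyruvate dehydrogenase, fell by 1.28 ± 0.26. Of 18 genes of cholesterol synthesis, 0 were higher and 4 lower in total RNA (22.2% lower), with Msmo1, a sterol oxidase, at -1.90 ± 0.34. Srebf2, the master regulator of that pathway, was higher in polysome RNA by 2.28 ± 0.20 with total RNA at 0.38 ± 0.26, but its probes ran from 0.15 to 2.28 in polysome RNA and from -0.02 to 1.91 in efficiency.

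Integrated stress response genes were called higher more often than lower. Of 33 tested, 9 were higher and 3 lower in each of the RNA fractions (27.3% and 9.09%), where 16% and 15.5% of all genes were called in polysome RNA, and 12.6% and 12% in the total fraction. Aars, the alanyl-tRNA synthetase, rose by 1.63 ± 0.25 in polysome RNA and Sars, the seryl enzyme, by 1.28 ± 0.20. Atf4, the transcription factor of the response, was 8.42, 8.38 and 9.13 against 10.52, 10.43 and 10.69 in polysome RNA, a difference of -1.91 ± 0.39. Of 27 NRF2 and oxidative stress genes, 7 were higher and 2 lower in total RNA (25.9% and 7.41%) and 7 were higher and 6 lower in polysome RNA (25.9% and 22.2%). Nqo1, a quinone reductase, was 8.59, 8.70 and 8.34 against 5.82, 5.35 and 6.37 in total RNA, a rise of 2.70 ± 0.24, while its efficiency differed by -1.65 ± 0.29. Ftl1, the ferritin light chain, differed by -1.37 ± 0.16 in total RNA and by -2.30 ± 0.31 in polysome RNA. Nfe2l2, which encodes NRF2, overlapped in total RNA and had an efficiency of -1.60, -1.30 and -1.47 against 0.83, 0.69 and 0.32, a difference of -2.07 ± 0.46.

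Signalling and hormone targets held calls in both directions. Of 27 immediate early genes, 6 were higher and 1 lower in total RNA (22.2% and 3.7%, against 12.6% and 12% of all genes), and the lower one was Klf6, a zinc finger factor, with a difference of -1.97 ± 0.21. Zfp36l1, which promotes decay of AU-rich mRNAs, overlapped in total RNA and differed by -1.29 ± 0.19 in efficiency, while its other probe gave -1.88 in total RNA, -2.89 in polysome RNA and -1.01 in efficiency. Of 21 p53 targets, 4 were higher and 3 lower in total RNA (19% and 14.3%, near the shares of all genes), and the death receptor Fas was 6.67, 6.47 and 7.04 against 10.41, 9.79 and 9.50, a difference of -3.18 ± 0.34. Mifepristone, present in both groups, blocks the glucocorticoid receptor, and of 17 genes of that receptor and its targets 2 were higher and 5 lower in total RNA (11.8% and 29.4%). Hsd11b1, which regenerates active glucocorticoid, fell by 3.17 ± 0.27, and Sgk1, a kinase induced by glucocorticoids, rose by 1.39 ± 0.17.

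Mitosis genes were called lower more often than higher in polysome RNA, by a count that varied with the fit. In polysome RNA 2 of 20 mitosis genes were higher and 5 lower (10% and 25%), and 3 of 29 DNA replication genes were higher and 4 lower (10.3% and 13.8%), against 16% and 15.5% of all genes. In total RNA 2 mitosis genes were higher and 3 lower (10% and 15%, against 12.6% and 12% of all genes). Over the alternative fits the count of mitosis genes lower ran from 3 to 11 in polysome RNA and from 0 to 13 in total RNA. The mitosis median was -0.44 in polysome RNA and -0.46 in total RNA, with 3 of 20 above 0 in each. With the authors' deposited log2 values these medians were -0.12 and -0.14. Mcm2, of the replicative helicase, rose by 1.52 ± 0.23 in polysome RNA, and Rfc4, of the clamp loader, fell by 1.52 ± 0.26. Of 36 homeobox and related factors, 5 were higher and 5 lower in total RNA (13.9% each way, against 12.6% and 12%), with Hoxd4 at -1.45 ± 0.18. Of 13 imprinted and growth genes, 0 were higher and 3 lower in total RNA (23.1% lower). Ndn, a growth suppressor, fell by 1.60 ± 0.20, and Peg3, a paternally expressed zinc finger gene, was 7.0, 6.95 and 6.56 against 8.19, 8.77 and 8.32, a difference of -1.59 ± 0.25, with an efficiency higher by 2.19 ± 0.56.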

How the data were processed

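Arrays were Illumina mouse bead arrays with 45281 probes. The authors deposited, per the file headers, a signal intensity per probe that was not normalized and a detection p-value, and a table of log2 values of their own processing, which served as an alternative. The sources used here do not state how the authors normalized the latter. From the deposited intensities, background was corrected by normexp with an offset of 16, with negative control levels inferred from the detection p-values, and all 50 arrays were quantile normalized. Of the probes, 34885 had 1 gene symbol, 18 several and 10378 none listed, and 34807 matched the gene table. Each gene was read from its brightest probe on average, and probes of a gene disagreed in sign in 24 of 100 calls of named genes with several detected probes. Genes detected (p below 0.05) on fewer than 3 arrays of 50 were left out, which kept 12644 of 19057.

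limma 3.58.1 in R 4.3.3 fitted 25 cultures with terms for group and processing batch, and Benjamini-Hochberg adjusted p-values over all genes tested. The contrast lies within batch 4, and the other 19 cultures share only the estimate of the spread. The median 95% half-width of a difference was 0.49 in polysome RNA, 0.43 in total RNA and 0.62 in efficiency. The number of arrays limits the precision. The fit was tested on simulated data. Alternatives changed the background correction, normalization, filter, probe choice, cultures fitted, array weights, a replicate block and the efficiency model, and left out each culture.

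Named genes were Eif4e, the 8 largest changes each way in each RNA fraction among called genes detected on all arrays of that fraction, the 6 largest each way in efficiency, the 5 largest bounds each way, and up to 4 called members of each of 30 lists with the smallest adjusted p. Other members were named after their values were seen. The members and the lists were chosen with earlier results of these data known, so list counts are descriptions, and the motifs were set after the values were seen and shortened by 1 letter from a first search. Promoter sequences came from RefSeq, where Hes1 and some other members had no entry.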

Additional observations from a re-analysis of the deposited data

How the results depend on the processing

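Fitting the 6 cultures of the comparison alone, or the 7 cultures of batch 4, which gave the same counts, raised the genes called to 5989 in polysome RNA, 5442 in total RNA and 4319 in efficiency. With array weights the counts were 6397, 5842 and 4534. With a replicate block in the 6 cultures the counts were 5463 in total RNA and 4277 in efficiency. Deviations of same-numbered cultures correlated at -0.06 to 0.12 over genes, and those of differently numbered cultures at -0.08 to 0.13. No shift shared by replicate number was seen, which cannot show whether the cultures were paired when grown. Median scaling gave 2551 efficiency calls, and total RNA as a covariate of polysome RNA gave 2507, of which 973 were shared with the 1478 and 969 of those had the same direction. Under that covariate Bmi1 efficiency turned to 1.29 (adjusted p = 0.672). Leaving out 1 culture gave 609 to 894 efficiency calls. Of the results for named genes under the alternatives, 2535 kept their direction and side of the threshold, 24 lost the call, 10 gained it and 1 turned. The cause of these moves was not tested. The gains are Eif4e, lower in both fractions. Genes near background, such as Eif4e, Met in polysome RNA and Lcn2, have no reliable efficiency, and array signal over background sets that limit.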
